A study of Arabidopsis thaliana with 6 samples.

Results

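GSA1, CHLM and PORB encode enzymes at an early, a middle and a late step of chlorophyll synthesis in plants. They were taken here as the 3 genes of that name with a probe set of their own on an Affymetrix ATH1 array of Arabidopsis thaliana, out of 13513 probe sets that the platform annotation assigns to 1 gene. Each of the 3 genes had exactly 1 such probe set, and all 3 passed the filter on dim signals. RNA from rosette leaves was measured on 6 arrays. There were 3 arrays of pho3, a line with a T-DNA insertion from the Feldmann collection in the ws-2 background, and 3 of ws-2 itself, called wild type here. Both lines spent 10 days on half-strength Murashige and Skoog medium with 1% sucrose and then grew on compost to growth stage 6.0, under a day of 16 h light and 8 h dark at 23 °C. A stratification of 3 days is also given for both lines. The labels do not give the number of plants behind an array, so the spread that the p-values rest on may be technical. The pho3 mutation is known as a lesion of SUC2, a carrier that brings sucrose into the phloem. SUC2 has no named probe set here, so the labels could not be checked against it.

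Chlorophyll is built in the plastid from glutamate. The early steps make 5-aminolevulinic acid and join it into porphyrins, and they also serve haem. Magnesium chelatase then commits protoporphyrin to chlorophyll, and later enzymes methylate the magnesium porphyrin, close an additional ring, reduce protochlorophyllide in the light and attach the phytol tail. GSA1 is a glutamate-1-semialdehyde aminotransferase, which forms 5-aminolevulinic acid. CHLM is the methyltransferase that acts directly after magnesium insertion. PORB is a protochlorophyllide oxidoreductase, the enzyme of the light-dependent step. Free intermediates of the pathway are phototoxic, and in leaves its genes are known to respond to light, to the circadian clock and to the state of the plastid.

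The 6 arrays did not separate cleanly by label. Principal component 1 held 76.3% of the variance over the 13983 probe sets tested. Its scores were -46.98, -49.12 and -0.86 on pho3 replicates 1, 2 and 3, and -24.48, 56.86 and 64.58 on wild-type replicates 1, 2 and 3. DFR, an anthocyanin gene, read 34.2 and 27.6 on wild-type replicates 2 and 3 and 586 to 1155 in pho3, and the library labelled wild-type replicate 1 read 799. For DFR that library thus read within the pho3 range, while on principal component 1 it and pho3 replicate 3 lay between the other pho3 and wild-type arrays. Results are given below with and without both. The 3 named leaf mesophyll markers, RCA, PRK and SBPASE, summed to signals of 4534 to 7114 in pho3 and 6036 to 8011 in wild type. The root markers EXPA7 and PYK10 summed to 33.7 to 38.8 and 22.9 to 55.0. Phloem, flower and seed markers had 0 named probe sets.

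The first question was how much each of the 3 steps differed between pho3 and wild-type leaves. Of the 3 genes CHLM had the largest difference, with a mean signal of 651 in pho3 and 1116 in wild type, and its groups overlapped on 1 array of each line. GSA1 varied little on any array. PORB varied more within each line than between them. No probe set on the array passed limma's test over all 6 arrays: 0% of the 13983 tested were called higher and 0% lower, at a threshold of 0.05 on the adjusted p. Before adjustment, 5.77% (807) had a p under 0.05 with a higher mean in pho3 and 4.85% (678) with a lower one. A signal here is the authors' linear MAS5 intensity, a difference is pho3 minus wild type on the log2 scale, and an interval is limma's 95% interval. In whole leaves, fewer cells of a type and less RNA per cell cannot be told apart.

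GSA1 was nearly flat. Its signal was 345, 322 and 362 on pho3 replicates 1, 2 and 3. On wild-type replicates 1, 2 and 3 it was 338, 340.2 and 383. The ranges of the groups overlapped. The mean of the pho3 arrays was 343 ± 20.3 and that of the wild-type arrays 354 ± 25.3 (SD, n = 3). The difference was -0.04 with an interval from -0.36 to 0.28 (limma adjusted p = 0.861), so a lower level by up to 0.36 or a higher one by up to 0.28 was not told apart from no difference. Between its highest and lowest array GSA1 varied 1.19-fold. Of all tested probe sets 4.37% had a smaller range, and of the brightest 25%, in which GSA1 lies, 7.55% did. The median tested probe set varied 1.63-fold. Without both arrays that lay between the others the difference was -0.11 (interval -0.44 to 0.21, limma adjusted p = 0.529).

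CHLM read 490.4, 488 and 973 on pho3 replicates 1, 2 and 3. On wild-type replicates 1, 2 and 3 it read 785, 1269 and 1294. Replicates 1 and 2 of pho3 lay below every wild-type array, while pho3 replicate 3 lay above wild-type replicate 1, so the groups overlapped. Its mean signal was 651 ± 279 for the pho3 arrays and 1116 ± 287 for the wild-type arrays (SD, n = 3). The difference was -0.82 (SE 0.33, interval -1.60 to -0.05), which is a 1.77-fold lower geometric mean. It did not pass limma's test over all genes (adjusted p = 0.375; unadjusted p = 0.0407).

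The CHLM difference was larger without the 2 arrays that lay between the others on principal component 1. Without wild-type replicate 1 the difference was -1.06 (interval -1.80 to -0.32, limma adjusted p = 0.0864). With pho3 replicate 3 also left out it was -1.39 (SE 0.10, interval -1.64 to -1.14, limma adjusted p = 0.00114), and CHLM was then 2.62-fold lower in pho3. In that fit 16.5% of all tested probe sets were called lower and 18.2% higher. It keeps the arrays at both ends of principal component 1, and each group then rests on 2 arrays. The part of this choice in the calls was not tested. Those pairs agreed closely for CHLM: wild-type replicate 3 read 1.02-fold of replicate 2, and pho3 replicate 1 read 1.00-fold of replicate 2.

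PORB varied widely within the lines, as CHLM also did, but its estimated difference between the lines was smaller. Its signal was 2006, 1066 and 1338 on pho3 replicates 1, 2 and 3. On wild-type replicates 1, 2 and 3 it was 1906, 972 and 2301. Both the highest and the lowest array were wild type, and the pho3 range lay inside the wild-type range. Over the pho3 arrays PORB had a mean of 1470.1 ± 484, and over the wild-type arrays 1727 ± 683 (SD, n = 3). The difference was -0.19 with an interval from -1.05 to 0.67 (limma adjusted p = 0.767), and -0.06 after quantile normalization. The first interval is wide and includes the point estimate of CHLM.

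**Figure D1:**
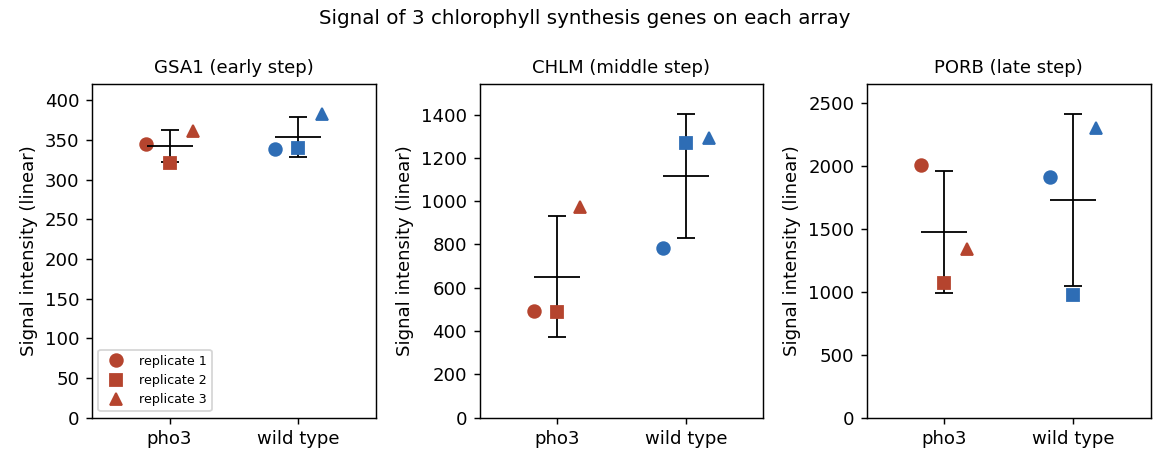
Linear signal intensity of GSA1, CHLM and PORB on the 3 pho3 arrays (red) and the 3 wild-type arrays (blue). Marker shape gives the replicate number, and the horizontal bar and whiskers give the mean and SD. GSA1 stays between 322 and 383, CHLM is lowest on pho3 replicates 1 and 2 at 490.4 and 488, and PORB ranges from 972 to 2301 within wild type alone.

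PORB had a within-group SD of 0.57 on the log2 scale, larger than that of 89.7% of tested probe sets and of 91.3% of the brightest 25%. CHLM had 0.50, larger than 86.1% of all tested. GSA1 had 0.09, larger than 5.76%. On the pair of wild-type arrays that agreed for CHLM, PORB differed 2.37-fold, with 972 on replicate 2 and 2301 on replicate 3. On pho3 replicates 1 and 2 it differed 1.88-fold. Without both arrays that lay between the others, the PORB difference was -0.03 and its interval widened to -1.15 to 1.08 (limma adjusted p = 0.963).

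The order of the arrays was also unlike between the genes. The deviation of CHLM from its mean followed the order of principal component 1, starting from -0.74 on both pho3 replicates 1 and 2. It was -0.06 on wild-type replicate 1, 0.25 on pho3 replicate 3, 0.63 on wild-type replicate 2 and 0.66 on wild-type replicate 3. PORB deviated by -0.64 on wild-type replicate 2 and -0.51 on pho3 replicate 2, which lie at opposite ends of that component. Its highest deviations, 0.60 on wild-type replicate 3 and 0.40 on pho3 replicate 1, also came from opposite ends. GSA1 stayed between -0.11 and 0.14.

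Some measures of RNA and array quality moved with CHLM or with PORB, while GSA1 was nearly flat. The ratio of the 3-prime to the 5-prime actin control was 4.75, 5.24 and 3.46 on pho3 replicates 1, 2 and 3, and 4.23, 2.18 and 2.26 on wild-type replicates 1, 2 and 3. The arrays with the highest ratios were those with the lowest CHLM signals. The corresponding GAPDH ratio, 1.16 to 1.47 in pho3 and 1.23 to 1.34 in wild type, and the ubiquitin ratio, 1.68 to 1.75 and 1.63 to 1.80, overlapped between the lines. For PORB, the 2 lowest arrays carried the highest signals of the 25S ribosomal RNA control, 180.2 on wild-type replicate 2 and 90.3 on pho3 replicate 2, against 25.8 to 51.9 on the others. Principal component 2, which comes from the expression signals themselves, held 10.2% of the variance. Its score was lowest, -23.22, on wild-type replicate 2 and highest, 27.65, on wild-type replicate 3, the arrays with the lowest and highest PORB. The part of these measures in the results for CHLM and PORB was not tested, and the ribosomal control and the second component were looked at after the PORB values were seen.

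**Figure D2:**
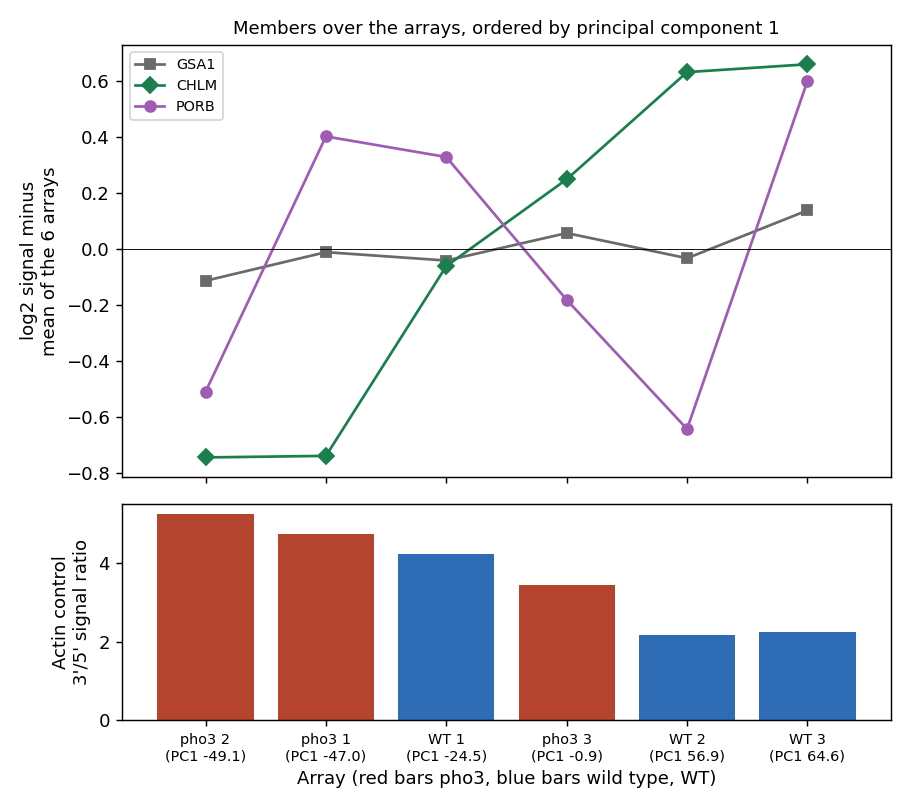
Top, log2 signal of GSA1, CHLM and PORB minus each gene's mean over the 6 arrays, with the arrays ordered by their score on principal component 1. Bottom, the signal ratio of the 3-prime to the 5-prime actin control on the same arrays. CHLM goes from -0.74 to 0.66 along this order, GSA1 stays between -0.11 and 0.14, and PORB has low and high arrays at both ends, while the actin ratio goes from 5.24 to 2.26.

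Whether the steps changed unequally was asked with the log2 ratio of 2 members on each array, which sets their changes and not their levels against each other. For CHLM over GSA1 the ratio was 0.51, 0.60 and 1.43 on pho3 replicates 1, 2 and 3. In wild type it was 1.21, 1.90 and 1.76. As for CHLM itself, pho3 replicate 3 overlapped wild-type replicate 1. The mean ratio was 0.84 ± 0.51 for pho3 and 1.62 ± 0.36 for wild-type arrays (SD, n = 3), a difference of -0.78 (exact permutation p = 0.2, two-sided; 0.6 adjusted over the 3 pairs). With 3 arrays against 3 this test cannot give a p below 0.1.

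The ratio of CHLM over PORB differed by -0.63 between the lines, with means of -1.21 ± 0.79 for pho3 and -0.58 ± 0.86 for wild-type arrays (SD, n = 3; exact permutation p = 0.5, adjusted 0.75). PORB over GSA1 differed by -0.15, with means of 2.05 ± 0.43 and 2.199 ± 0.59 (SD, n = 3; exact permutation p = 0.9, adjusted 0.9). For neither ratio did the difference exceed the SD within a line. Without both arrays that lay between the others the differences were -1.27 for CHLM over GSA1, -1.36 for CHLM over PORB and 0.08 for PORB over GSA1. There 2 arrays per group are too few for the exact test to reach 0.05. Since the exact test could not pass 0.05 in this design, it does not decide whether the early, middle and late members changed equally.

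The other genes of the pathway were taken from lists of chlorophyll synthesis, the haem and bilin branch, regulators and chlorophyll turnover. Of 57 listed genes 14 had a named probe set and 12 passed the filter on dim signals, the 3 members among them. The haem and bilin branch and the regulators had 0 named probe sets. The 12 were thus 10 genes of synthesis and 2 of turnover. All 12 had a lower mean in pho3, with a median difference of -0.34, and 50.2% of all tested probe sets had a lower mean, with a median of 0.00. This direction for all 12 was also seen after quantile normalization and median centring, but it did not hold with every array left out. Without pho3 replicate 2 the differences were 0.015 for PORB and 0.0016 for GSA1. Without wild-type replicate 3 they were 0.061 and 0.0145. Nor was the direction particular to these genes: the 3 antenna and 3 Calvin cycle genes tested also had lower means in pho3. None of the 12 was called by limma over all 6 arrays, and 2, CHLM and HEME1, had an unadjusted p under 0.05. Of all tested probe sets 4.85% had such a p with a lower mean in pho3 and 5.77% with a higher one. The groups did not overlap for 3 of the 12, all lower in pho3, while 5.81% of all tested probe sets were lower and 5.31% higher without overlap. None of the 3 was a member: they were HEME1, CHLP and NOL.

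Among the early steps, HEME1, a uroporphyrinogen decarboxylase, read 166, 132 and 183 on pho3 replicates 1, 2 and 3. It read 198, 256 and 295 on wild-type replicates 1, 2 and 3. Every pho3 array lay below every wild-type array, by a narrow gap between pho3 replicate 3 and wild-type replicate 1. The difference was -0.63 (SE 0.21, limma adjusted p = 0.375). Its paralogue HEME2 overlapped between the lines, with 276, 239.9 and 410.4 on the pho3 arrays against 338, 396 and 474 (difference -0.41). HEMB1, the 5-aminolevulinic acid dehydratase that acts directly after GSA1, read 370.4, 313 and 476 on the pho3 arrays against 383, 493 and 644 on the wild-type arrays (difference -0.38).

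The remaining early genes with a tested probe set were closer to GSA1. HEMA2, an isoform of glutamyl-tRNA reductase, the enzyme before GSA1, ranged from 49.8 to 59.4 in pho3 and from 52.5 to 73.6 in wild type (difference -0.20). HEMB2, listed beside HEMB1, ranged from 23.2 to 30.4 and from 27.5 to 28.9 (difference -0.04) and reached the 40th percentile of signal on 4 of 6 arrays. HEMA3 and HEMF2 were dim, with 3.14 to 24.9 and 2.07 to 9.99 over all arrays, and were not tested. GSA2, the second aminotransferase gene, and HEMA1 have no named probe set here.

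Of the middle steps, CHLI2, the second gene for the ATPase subunit of magnesium chelatase, was measured beside CHLM. It read 73.4, 69.7 and 103.9 on pho3 replicates 1, 2 and 3. In wild type it read 88.8, 120.3 and 112.8. As for CHLM, pho3 replicates 1 and 2 were lowest and pho3 replicate 3 lay above wild-type replicate 1. The difference was -0.39 (SE 0.21, limma adjusted p = 0.375), smaller than that of CHLM, and the difference between them was not tested.

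Of the late steps, AT1G74470, listed as CHLP, the geranylgeranyl reductase that makes the phytol tail, read 1763, 1551 and 1954 in pho3. It read 1958, 2337 and 2122 in wild type. The groups were separated by a gap of a few signal units between 1954 and 1958. The difference was -0.29 (SE 0.12, limma adjusted p = 0.375), or -0.12 after quantile normalization. CHLP thus did not share the swings of PORB: wild-type replicates 2 and 3 differed 2.37-fold for PORB, while CHLP read 0.91-fold on replicate 3 relative to replicate 2. PORA and PORC, the other protochlorophyllide oxidoreductases, have no named probe set here, and whether their transcripts add to the PORB signal was not tested.

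Both measured genes of chlorophyll turnover also had lower means in pho3. AT1G44000, listed as SGRL, a relative of the STAY-GREEN proteins that take part in chlorophyll breakdown, read 187, 221 and 449 on pho3 replicates 1, 2 and 3. It read 318, 576 and 506 in wild type. Its arrays were ordered much as those of CHLM, with a difference of -0.77 (SE 0.38, limma adjusted p = 0.375). NOL, a chlorophyll b reductase, read 147, 141 and 152 on the pho3 arrays. It read 171, 185 and 182 on the wild-type arrays, all above pho3. NOL was the most even of these genes within the lines, with a within-group SD of 0.05 and a difference of -0.29 (SE 0.13, limma adjusted p = 0.375).

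Without both arrays that lay between the others, 7 of the 12 genes were called lower and 0 higher by limma, beside 16.5% and 18.2% of all tested probe sets. That fit keeps the arrays at both ends of principal component 1, which comes from the same signals. The part of this choice in the calls was not tested. Those called were HEMB1, HEME1, HEME2, CHLI2, CHLM, CHLP and SGRL. Their differences ran from -0.43 for CHLP to -1.41 for SGRL, with CHLM at -1.39. Not called were GSA1, PORB, HEMA2, HEMB2 and NOL. Without wild-type replicate 1 alone 0 of the 12 were called, beside 0.837% of all tested probe sets called lower and 4.61% higher.

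**Figure D3:**
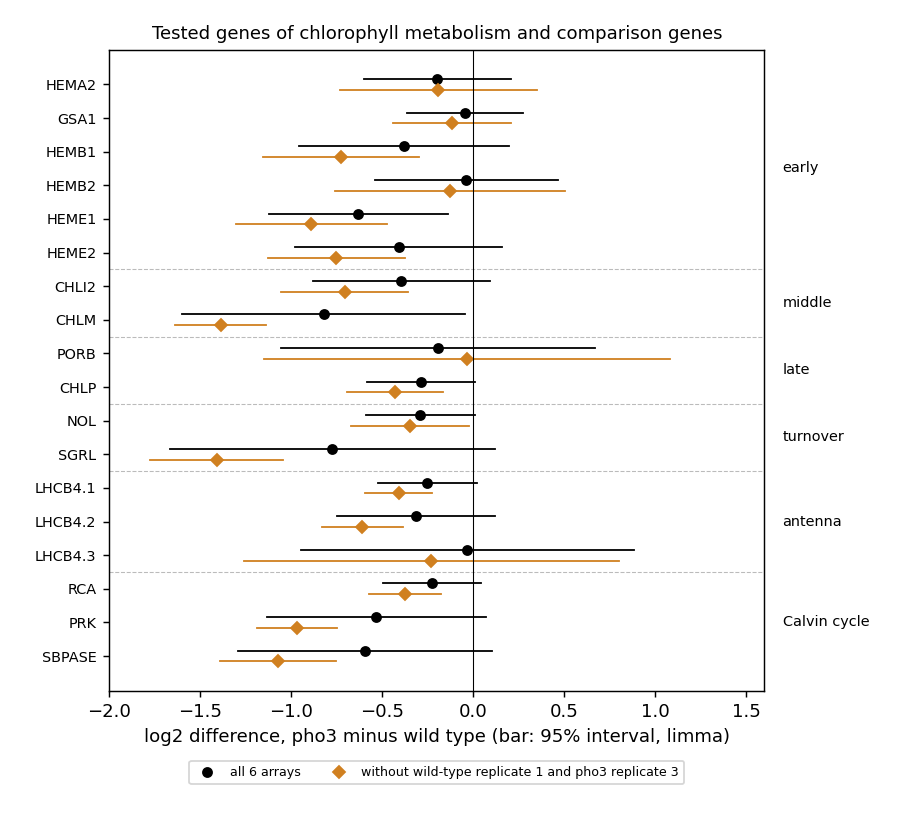
Log2 difference, pho3 minus wild type, of the 12 tested genes of chlorophyll metabolism, 3 antenna genes and 3 Calvin cycle genes, with limma's 95% interval. Black circles use all 6 arrays and orange diamonds leave out wild-type replicate 1 and pho3 replicate 3. CHLM moves from -0.82 to -1.39, GSA1 from -0.04 to -0.11, and PORB keeps a wide interval around -0.19 and -0.03.

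Genes whose products bind chlorophyll or fix carbon in the same cells were set beside the members. Of 20 antenna genes 3 had a named probe set. LHCB4.1 differed by -0.25, LHCB4.2 by -0.32 and LHCB4.3 by -0.03 (limma adjusted p = 0.375, 0.389 and 0.967). The Calvin cycle genes SBPASE, PRK and RCA differed by -0.60, -0.53 and -0.23 (limma adjusted p = 0.375 for each). Over all 6 arrays as deposited CHLM had the largest difference of these genes and the 12 of chlorophyll metabolism, whereas after quantile normalization SGRL had it, at -0.77 against -0.72. GSA1 lay near LHCB4.3 and HEMB2 at the other end. Quantile normalization also brought LHCB4.1 to -0.11, LHCB4.2 to -0.17 and RCA to -0.07. Without both arrays that lay between the others, limma called LHCB4.1, LHCB4.2, SBPASE, PRK and RCA lower, at -0.41, -0.61, -1.07, -0.97 and -0.37. LHCB4.3 was not called (-0.23). In that fit 16.5% of all tested probe sets were called lower and 18.2% higher. Tests of CHLM against each of these genes were not made.

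Likeness of pattern was measured as the root mean square difference between log2 signals, each centred on its mean over the 6 arrays, against 7611 other tested probe sets with 1 gene. A value of 0 means the same relative change on every array. Genes with a like order of arrays but swings of unlike size also lie far apart by this measure. The nearest to CHLM was AT2G05200, at 0.05, a dim probe set with 21.6, 20.5 and 39.2 in the mutant and 33.7, 51.6 and 52.6 in its background line. Next came AT1G54500, which encodes a rubredoxin-like protein, at 0.05, with 369, 407 and 794 in the mutant and 606, 986 and 1030 in its background line. AT5G56100 was the third, at 0.06. All 3 were lowest on pho3 replicates 1 and 2 and highest on wild-type replicates 2 and 3, with pho3 replicate 3 above wild-type replicate 1, as CHLM was.

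Among the listed genes SGRL was the nearest to CHLM, at rank 32 with a distance of 0.11. SBPASE followed at rank 152 and PRK at rank 162, with distances of 0.17 and 0.18. The other synthesis genes were farther: HEME2 stood at rank 500, HEME1 at 525, CHLI2 at 559 and HEMB1 at 681. These ranks also reflect the size of the swings. CHLI2, for which pho3 replicate 3 also lay above wild-type replicate 1, had a log2 range of 0.79 against 1.405 for CHLM. GSA1 stood at rank 2821 and PORB at rank 5496, at 0.74, where the median of all probe sets compared was 0.61. By this measure CHLM lay closer to SGRL, SBPASE and PRK than to either of the other members.

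PORB was nearest to MAP1C, a methionine aminopeptidase, at 0.11. MAP1C read 238, 129 and 142 on pho3 replicates 1, 2 and 3 and 201, 93.8 and 240.2 on wild-type replicates 1, 2 and 3. It was low on the same 3 arrays as PORB. AT4G01130 followed at 0.14 and AT4G31050 at 0.17. Both had their lowest signal on wild-type replicate 2, at 23.5 and 21.7, and their highest on wild-type replicate 3, at 59.8 and 53.5, as PORB did. Their differences between the lines were -0.02 for MAP1C, -0.13 for AT4G01130 and 0.10 for AT4G31050 (limma adjusted p = 0.981, 0.841 and 0.889). Of the listed genes HEMA2 was the nearest, at 0.42 and rank 784, and CHLM stood at rank 6786.

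GSA1 was nearest to AT3G11530, AT3G13410 and AT4G01650, at 0.03, 0.03 and 0.04. A nearly flat pattern has many near neighbours, and the median distance from GSA1 was 0.25, against 0.61 from CHLM and 0.54 from PORB. AT3G11530 read 207, 197 and 210.0 in the mutant and 203, 202 and 223 in its background line. HEMB2 was the nearest listed gene, at rank 334. Such likeness over 6 arrays, which share their hybridisations and scaling, is a description and carries no test.

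**Figure D4:**
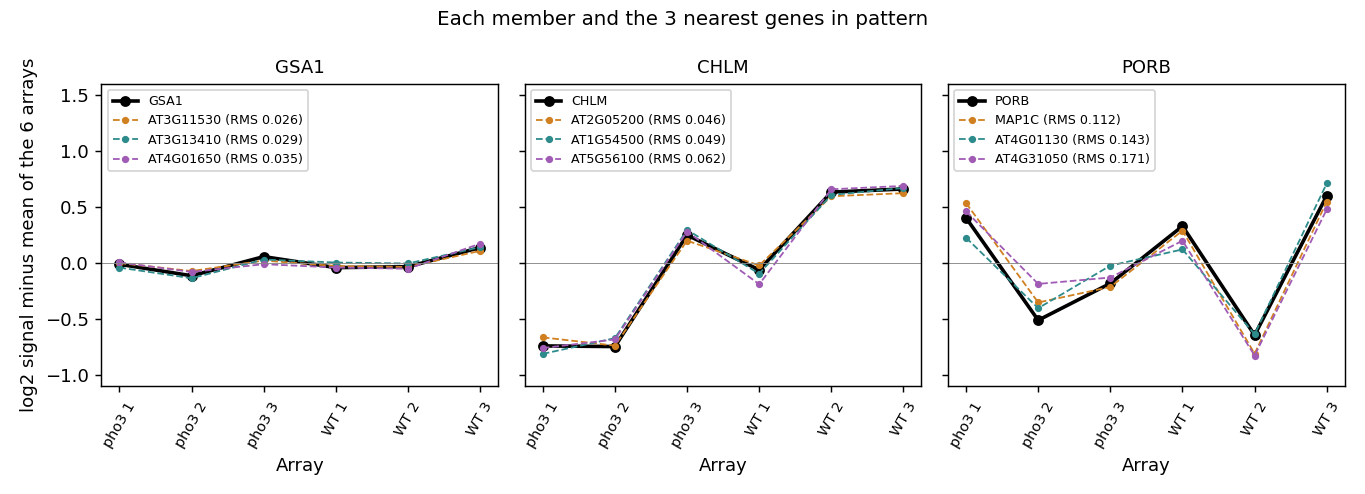
Log2 signal minus the mean of the 6 arrays for GSA1, CHLM and PORB (black) and, in colour, the 3 probe sets nearest to each by root mean square (RMS) distance. The neighbours of CHLM follow it within 0.05 to 0.06, those of GSA1 within 0.03 to 0.04, and those of PORB less closely, at 0.11 to 0.17, with low signals on wild-type replicate 2 in each.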

How the data were processed

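Per the submitters' processing notes the arrays were processed with MAS5, with no version given. The deposited values are signal intensities on a linear scale, 1 for each of 22810 probe sets per array. Their mean without the top and bottom 2% came to 100.0 in all 6 arrays. Groups and replicate numbers came from the sample titles. After removal of 64 control probe sets, the 13983 with a signal at or above the array's 40th percentile (26.2 to 28.4) on at least 3 arrays were tested. The log2 of the signal, without a pseudocount, was fitted with limma 3.58.1 in R 4.3.3 (lmFit, eBayes with trend, two-sided, Benjamini-Hochberg over all tested, threshold 0.05). Ratios of members used exact permutation tests in scipy 1.17.1. The fit was run on simulated data with independent noise on each array. The real arrays share a large component that crosses the labels, so that run does not show how the fit behaves here. Gene names came from the platform annotation, with symbols brought up to date by gene ID from RefSeq's TAIR10.1 table. Of the probe sets 13513 had 1 gene, 503 several and 8730 were unlisted and stay unnamed. No coordinates or sequences are given. The number of arrays limits the precision, and detection calls were not used here.

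The members and lists were chosen with earlier results of these data known. Named were the 3 members, all listed genes with a probe set of 1 gene, the 3 probe sets nearest to each member, and DFR. Guard cell markers were also listed: FMA differed by -0.27 and MUTE and SPCH were too dim to test. The alternatives were median centring, quantile normalization, log2 with a pseudocount of 16, no filter, a 60th percentile filter, eBayes without trend or robust, array weights, a block for the replicate number, each array left out in turn, and both arrays that lay between the others left out.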

Additional observations from a re-analysis of the deposited data

How the results depend on the processing

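With median centring, quantile normalization, a pseudocount of 16, the 2 changed filters and the 2 changed variance priors, the CHLM, PORB and GSA1 differences kept their sign and stayed uncalled, and 0 probe sets were called in either direction. Array weights were 0.367 for wild-type replicate 1 and 0.443 for pho3 replicate 3, below those of the other arrays, and gave 2237 probe sets higher and 2026 lower, 6 listed genes lower, and CHLM at -1.20 (limma adjusted p = 0.0259). Such weights are estimated from the same labels, so they are no separate evidence. Without both of those arrays 2547 were higher, 2305 lower and 7 listed genes lower, and CHLM was -1.39. Leaving out each array in turn gave 0 to 644 probe sets higher and 0 to 117 lower, above 0 solely without wild-type replicate 1, and 0 listed genes in each case. CHLM then ranged from -1.15 to -0.66 (limma adjusted p from 0.0864 to 0.733). PORB ranged from -0.56 to 0.061, turning to 0.015 with pho3 replicate 2 left out and to its highest with wild-type replicate 3 left out. With both arrays left out GSA1 was -0.11. With 1 left out it ranged from -0.084 to 0.0145, turning to 0.0016 and 0.0145 without the same arrays. The difference of PORB over GSA1 turned to 0.0033 after quantile normalization and 0.082 without both arrays, and ranged from -0.49 to 0.05 with 1 array left out, at 0.0135 without pho3 replicate 2, 0.0001 without wild-type replicate 1 and 0.0462 without wild-type replicate 3. CHLM over GSA1 ranged from -1.07 to -0.61 and CHLM over PORB from -1.003 to -0.15, the latter without wild-type replicate 2. The causes of these changes were not tested.

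With the replicate number as a block the differences were -0.82 for CHLM, -0.19 for PORB and -0.04 for GSA1 (limma adjusted p = 0.192, 0.595 and 0.876), and 0 probe sets were called. Their SEs were 0.208, 0.202 and 0.144 with the block, against 0.327, 0.364 and 0.135 without it. PORB was lowest on replicate 2 of each line, at 1066 in pho3 and 972 in wild type. Deviations from the group means correlated at 0.39, -0.27 and 0.43 across tested probe sets for the pairs numbered 1, 2 and 3. The highest correlation of wild-type replicate 1 was with pho3 replicate 2, at 0.52. With 3 arrays per line these correlations do not settle whether arrays of the same number were paired. Precision is limited by 3 arrays per group.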
